A study of Mus musculus with 12 samples.

Results

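The glomerular basement membrane is the sheet of extracellular matrix between the podocytes and the endothelial cells of the kidney's filtration barrier. The genes described here are 10 of the 14096 genes listed for each mouse, chosen by symbol for their place in that sheet: Col4a3, Col4a4, Col4a5, Lama5, Lamb2, Lamc1, Lamc3, Agrn, Nid1 and Hspg2. All 10 were listed in all 12 mice. Glomerular mRNA was sequenced from 12 male eNOS−/− mice on a C57BL/6J background, which lack functional endothelial nitric oxide synthase (gene Nos3), a change that aggravates diabetic kidney disease. Of these, 6 had been made diabetic when 8 weeks old with streptozotocin (STZ, a toxin of insulin-producing cells), 50 mg/kg a day for 5 days, and the other 6 received citrate buffer. From 10 weeks after induction, 3 mice of each kind were gavaged daily for 8 weeks with arctigenin (ATG, a plant lignan) at 40 mg/kg in 5% DMSO and 3 with the 5% DMSO vehicle. All 4 groups carried the eNOS deletion, and no wild-type mice were analysed here. Each mouse is a separate animal, and the p-values rest on the spread between mice pooled over all 4 groups. They do not measure the spread of the compared groups alone.

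In the adult glomerulus, chains from Col4a3, Col4a4 and Col4a5 wind into a type IV collagen network made by podocytes, and mutations in these genes cause Alport syndrome. The laminin network is a trimer of the chains from Lama5, Lamb2 and Lamc1, and loss of Lamb2 causes Pierson syndrome. Nidogen-1 (Nid1) links laminin to type IV collagen, and agrin (Agrn) and perlecan (Hspg2) are core proteins that carry heparan sulfate chains. Lamc3 encodes a different laminin gamma chain that is not part of that trimer.

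Col4a3 and Col4a4 lie head to head on mouse chromosome 1 and are read in opposite directions from the stretch between them. That stretch, chr1:82586850-82586920 on the plus strand of GRCm38.p6, is shown because the pair shares it as a start region. Upstream bases of Nid1, on chr13:13437352-13437601 (plus strand), and of Hspg2, on chr4:137468553-137468802 (plus strand), are shown because these genes had the largest differences between diabetic and nondiabetic mice given ATG. All sequences are from RefSeq, and capitals mark CCAAT or its reverse complement ATTGG and the GC box GGGCGG or its reverse complement CCGCCC.
Col4a4 to Col4a3: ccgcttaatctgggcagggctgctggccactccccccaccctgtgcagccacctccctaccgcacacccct
Nid1: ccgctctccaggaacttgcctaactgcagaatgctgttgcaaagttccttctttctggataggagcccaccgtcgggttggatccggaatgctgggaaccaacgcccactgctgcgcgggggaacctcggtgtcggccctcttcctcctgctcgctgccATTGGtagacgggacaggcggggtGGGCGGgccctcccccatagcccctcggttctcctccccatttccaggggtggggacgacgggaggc
Hspg2: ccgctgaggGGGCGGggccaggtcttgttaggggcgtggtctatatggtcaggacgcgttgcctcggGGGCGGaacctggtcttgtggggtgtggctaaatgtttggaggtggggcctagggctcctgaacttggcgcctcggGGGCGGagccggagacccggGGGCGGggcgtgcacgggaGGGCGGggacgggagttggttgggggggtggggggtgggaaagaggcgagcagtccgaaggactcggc
RefSeq upstream windows of 250 bases were given for 7 of the 10 members. The Hspg2 window held 5 GC boxes and no CCAAT, and the Nid1 window held 1 of each. The stretch between Col4a4 and Col4a3 held neither. Over all 32851 windows, 32.7% held a GC box and 33.8% a CCAAT. Among the other members, Lama5 had 4 GC boxes, Col4a5 had 1 GC box and 1 CCAAT, Lamb2 had neither, and the 2 windows of Agrn had 12 and 2 GC boxes, counting overlapping matches. These are matches of letters in a window and not measured binding sites. The homeodomain core TAATTA, held by 4.84% of all windows, was in none of the members' windows.

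Values are the authors' log2 values, taken here as reads per gene times a factor per library and not divided by length. The libraries held from 23638059 to 29768868 reads. The members other than Lamc3 had between 1788 and 72042 reads in a mouse, whereas Lamc3 had between 174 and 404, so its values carry the largest counting error. Nos3 itself had log2 values from 10.07 to 11.40, so its transcript was still read in these eNOS-null mice, and where in the gene those reads lie was not tested. Defining markers of podocytes, endothelial cells and mesangial cells were all above 0 in every mouse, as were all 20 tubule markers. The tubule markers moved with the groups. Their mean log2 value was 12.71 to 13.25 in nondiabetic vehicle mice, 13.38 to 14.01 in nondiabetic ATG mice, 10.84 to 12.21 in diabetic vehicle mice and 11.55 to 12.18 in diabetic ATG mice. Every diabetic mouse was thus below every nondiabetic mouse, so diabetes and the share of tubule RNA cannot be fully told apart. In bulk glomeruli, fewer cells of a type and less RNA per cell cannot be told apart.

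Per transcript length, Col4a3 was the most abundant member in all 4 groups. In nondiabetic vehicle mice it stood at an RPKM (reads per kilobase of transcript, scaled to the library's listed reads) of 165 ± 11 (SD, n = 3), above Lamb2 at 101 ± 4.1 and Col4a4 at 82.7 ± 6.4. Agrn followed at 55.7 ± 3.4, then Lama5 at 46.9 ± 2.8 and Col4a5 at 43.7 ± 1.4, whose ranges overlapped. Nid1 stood at 29.4 ± 1.7, and Hspg2 at 23.5 ± 2.0 and Lamc1 at 22.7 ± 1.6 overlapped. Lamc3 was lowest at 2.25 ± 0.19, below the range of Lamc1 in every group. The top and bottom of this order were the same in the diabetic vehicle mice, where Col4a3 was at 215 ± 63 and Lamc3 at 1.17 ± 0.11. There all neighbours in the order from Lamb2 down to Hspg2 overlapped.

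**Figure D1:**
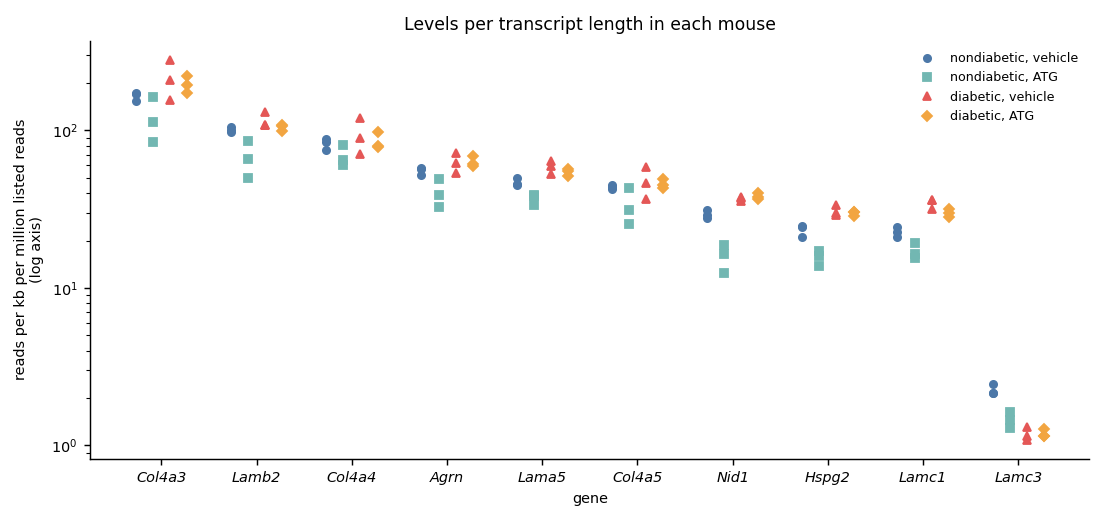
Levels per transcript length (RPKM over the listed genes, log axis) of the 10 genes, each point 1 mouse, symbols by group. Col4a3 is highest and Lamc3 lowest in every group, with Lamc3 at 2.25 in nondiabetic vehicle mice and 1.17 in diabetic vehicle mice.

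**Figure D2:**
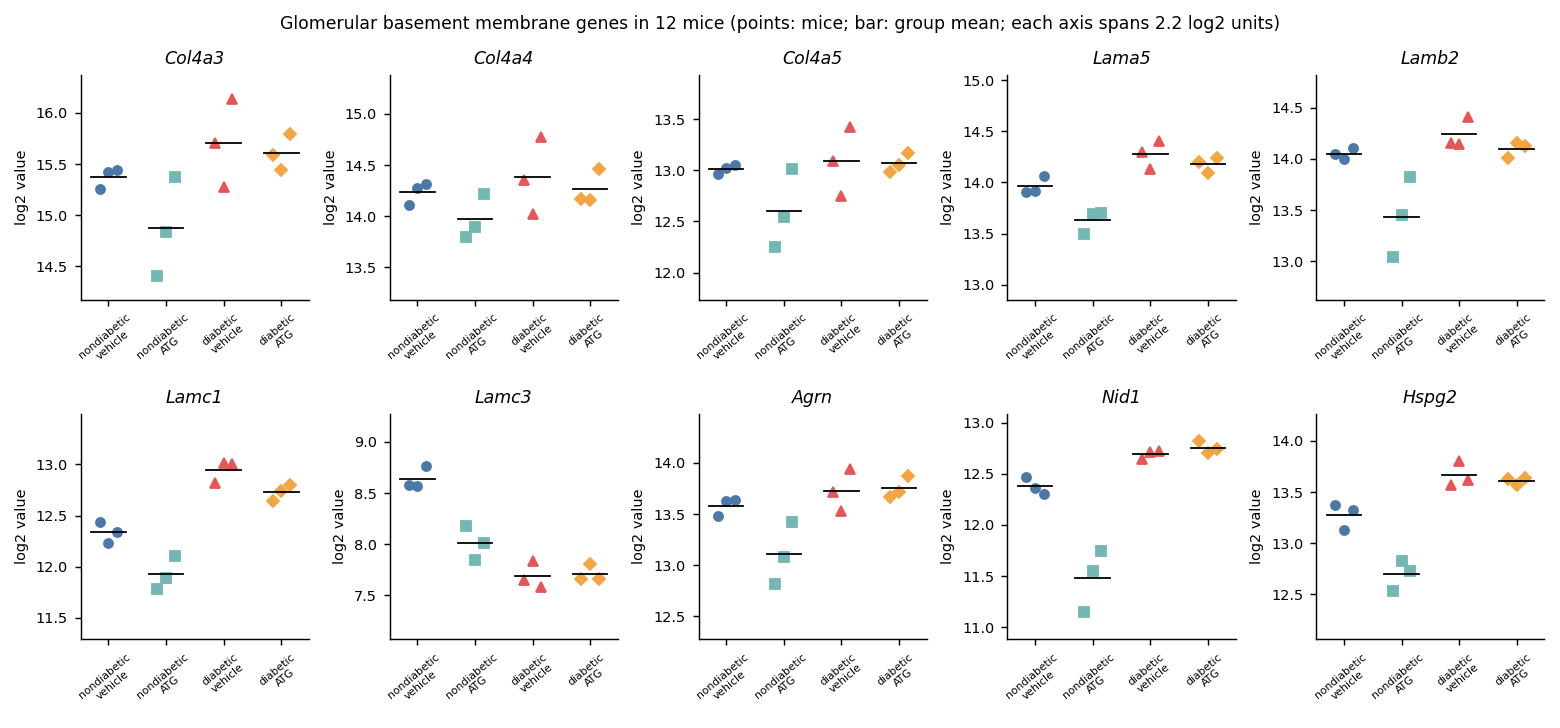
Log2 values of the 10 genes in the 12 mice, each point 1 mouse and each bar a group mean, with every axis spanning the same number of log2 units. Lamc3 is highest in the nondiabetic vehicle mice, while Nid1, Hspg2 and Lamc1 are lowest in the nondiabetic ATG mice.

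The first question was whether diabetes alone, with vehicle, changed these genes. In vehicle mice Lamc1, Lama5 and Hspg2 rose and Lamc3 fell. With limma, 4 of 10 members passed an adjusted p of 0.05, against 18.9% of all genes. The direction was higher for 3, against 10.2% of all genes, and lower for 1, against 8.63%. Log2 fold changes were positive for 9 of 10 members and for 51.2% of all genes. The median log2 fold change of the members was 0.25, and that of all genes was 0.008.

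The 3 collagen genes were Col4a3 (chr1:82586921-82722059, plus strand), Col4a4 (chr1:82450723-82586849, minus strand) and Col4a5 (chrX:141475419-141689235, plus strand). None passed the test with vehicle. Col4a3 was at log2 15.26, 15.42 and 15.44 in nondiabetic vehicle mice and 15.71, 15.28 and 16.14 in diabetic vehicle mice. Of the diabetic values, 1 lay inside the nondiabetic range and the other 2 above it, so the groups overlapped, and the log2 fold change was 0.33 ± 0.25 (SE, adjusted p = 0.366). Col4a4 and Col4a5 had log2 fold changes of 0.15 ± 0.18 (adjusted p = 0.599) and 0.07 ± 0.19 (adjusted p = 0.812). The diabetic vehicle mice spread more widely, with an SD of 0.43 for Col4a3 against 0.095 in nondiabetic vehicle mice. The podocyte marker mean was 14.45, 14.14 and 14.89 in these diabetic vehicle mice, in the same order of mice as Col4a3.

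Among the laminin chains of the adult trimer, Lamc1 (chr1:153218922-153332786, minus strand) changed most. It was at log2 12.44, 12.23 and 12.34 in nondiabetic vehicle mice and 12.82, 13.01 and 13.00 in diabetic vehicle mice. All diabetic values were higher, and the log2 fold change was 0.61 ± 0.096 (SE, adjusted p = 0.00442). Lama5 (chr2:180176373-180225859, minus strand) was at 13.91, 13.92 and 14.06 against 14.30, 14.13 and 14.41. These groups did not overlap either, and Lama5 rose by 0.32 ± 0.096 (adjusted p = 0.0402). Lamb2 (chr9:108479862-108490530, plus strand) was at 14.05, 14.00 and 14.11 against 14.16, 14.15 and 14.41. Its groups did not overlap, but its log2 fold change of 0.19 ± 0.16 did not pass (adjusted p = 0.429).

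Lamc3 (chr2:31887281-31946535, plus strand) was the only member that fell with diabetes and vehicle. Its log2 values were 8.58, 8.57 and 8.77 in nondiabetic vehicle mice and 7.65, 7.84 and 7.58 in diabetic vehicle mice. Every diabetic mouse was below every nondiabetic one, and the log2 fold change was −0.95 ± 0.11 (adjusted p = 0.00199). The annotated gene Gm13441 overlaps exons of Lamc3 on the other strand, and whether the counting used strand is not given in the sources used here.

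Among the linkers and proteoglycans, Hspg2 (chr4:137468803-137570630, plus strand) was at log2 13.37, 13.13 and 13.33 in nondiabetic vehicle mice and 13.57, 13.80 and 13.62 in diabetic vehicle mice. The groups did not overlap, and Hspg2 rose by 0.39 ± 0.098 (adjusted p = 0.0233). Nid1 (chr13:13437602-13512275, plus strand) was at 12.47, 12.36 and 12.30 against 12.64, 12.71 and 12.72. Its groups did not overlap either, but its log2 fold change of 0.32 ± 0.12 did not pass (adjusted p = 0.0898). Agrn (chr4:156165290-156197488, minus strand) overlapped between the groups, with a log2 fold change of 0.15 ± 0.15 (adjusted p = 0.497). In all, 5 members had every diabetic vehicle mouse above every nondiabetic vehicle mouse, against 23% of all genes, and 1 had every diabetic mouse below, against 18.7%.

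The tubule markers moved with this comparison too, with 13 of 20 lower in diabetic vehicle mice and their summed linear values ranging from 411142 to 482566 in nondiabetic and from 90987 to 265567 in diabetic mice. Endothelial markers were higher in 6 of 12 genes, with a mean of 13.84 to 14.05 against 13.48 to 13.61. Leukocyte markers were higher in 3 of 8 listed genes and erythrocyte markers in 2 of 3, mesangial markers were higher in 1 of 8, and of the smooth muscle and renin cell markers 1 of 5 was lower. The part of these markers in the members' values was not tested. When the fit was adjusted for each mouse's tubule marker level, Lamc3 alone was called (−0.86, adjusted p = 0.042), in a fit that called 3.9% of all genes, and Col4a3, Col4a4, Col4a5, Lamb2 and Agrn had negative values. Of the calls lost there, Lamc1 was at 0.49 (adjusted p = 0.0933) and Hspg2 at 0.47 (adjusted p = 0.118), against 0.61 and 0.39 without the adjustment, whereas Lama5 was at 0.07 (adjusted p = 0.772). Adjusted for the podocyte marker level, the calls were Lama5, Lamc1, Lamc3 and Hspg2, in a fit that called 29.2% of all genes. In the 12 fits that each left out 1 mouse, Lamc1 and Lamc3 were called every time, Hspg2 10 times and Lama5 3 times, and without nondiabetic vehicle mouse 2 only Lamc1 and Lamc3 were, with 5.68% of all genes. Mice are numbered here in their listed order within a group. In both nondiabetic groups, mouse 1 has no number in its label, mouse 2 has the number 1 and mouse 3 the number 2. With only the groups compared in the fit, Nid1 was called (adjusted p = 0.0295) and Lama5 was not (adjusted p = 0.0678). Without the 2 nondiabetic mice whose labels carry no number, Nid1 was likewise called (adjusted p = 0.0217) and Lama5 was not (adjusted p = 0.0882).

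The second question was what ATG did in diabetic mice. No member passed the test, and 0% of all genes did. At an unadjusted p under 0.05, 1 member passed, Lamc1, against 4.51% of all genes. Lamc1 was at log2 12.64, 12.74 and 12.80 in diabetic ATG mice, below all 3 diabetic vehicle mice (as for 6.32% of all genes), with a log2 fold change of −0.22 ± 0.096 (adjusted p = 1). The lowest adjusted p over all genes was 0.248, and limma-voom on recovered reads called 0 members. Log2 fold changes were positive for 3 of 10 members and 48.2% of all genes. Lamc3 was at 7.66, 7.81 and 7.66 in diabetic ATG mice, inside the range of the diabetic vehicle mice, with a log2 fold change of 0.02 ± 0.11. Its 95% interval ran from −0.23 to 0.27. The widest interval was that of Col4a3, from −0.65 to 0.45. All other members overlapped between these groups.

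Nid1, Hspg2, Lamc3 and Lamc1 were lower with ATG in nondiabetic mice. These 4 of 10 members passed the test, all lower, against 4.51% of all genes lower and 5.22% in either direction. All 10 log2 fold changes were negative, against 43.8% of all genes above 0, and their median was −0.49, against −0.039 over all genes. Nid1 was at 11.15, 11.55 and 11.74 in nondiabetic ATG mice, all below the nondiabetic vehicle mice, and fell by 0.89 on the log2 scale (SE 0.12, adjusted p = 0.00586). Its SD was 0.30 in nondiabetic ATG mice and 0.088 in nondiabetic vehicle mice. With only these 2 groups in the limma fit, its adjusted p was 0.0824.

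Hspg2 was at 12.53, 12.83 and 12.73 in nondiabetic ATG mice and fell by 0.58 (SE 0.098, adjusted p = 0.0121). Lamc3 was at 8.18, 7.85 and 8.01 and fell by 0.62 (SE 0.11, adjusted p = 0.0153). Lamc1 was at 11.78, 11.89 and 12.11 and fell by 0.41 (SE 0.096, adjusted p = 0.0387). Of the 12 fits that each left out 1 mouse, Nid1 was called in 12, Hspg2 in 10, Lamc3 in 9 and Lamc1 in 3. Median-ratio scaling also lost the Lamc1 call (limma, adjusted p = 0.0522). Lamb2, Lama5 and Agrn missed the threshold, at −0.62 ± 0.16 (adjusted p = 0.0506), −0.33 ± 0.096 (adjusted p = 0.0683) and −0.48 ± 0.15 (adjusted p = 0.0744). In 7 members every ATG mouse was below every vehicle mouse, against 20% of all genes.

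The collagen genes overlapped in this comparison. Col4a3 was at 14.41, 14.84 and 15.37 in nondiabetic ATG mice, and the highest of them lay within the vehicle range. Its log2 fold change was −0.50 ± 0.25 (adjusted p = 0.195). The podocyte marker mean in these mice was 13.13, 13.60 and 14.36, in the same order of mice, against 14.22 to 14.37 in nondiabetic vehicle mice. Adjusted for podocyte marker level, Col4a3, Col4a4 and Col4a5 were at 0.04, 0.08 and 0.02, and the calls were Nid1 and Lamc3, against 0.709% of all genes. Hspg2 was then at −0.56 (adjusted p = 0.0576) and Lamc1 at −0.28 (adjusted p = 0.236).

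Other cell types moved with ATG in nondiabetic mice as well. Mesangial markers fell in 7 of 8 genes, and their mean was 10.79 to 11.11 against 11.72 to 12.02 with vehicle. Endothelial markers fell in 6 of 12 genes, with a mean of 12.51 to 13.32 against 13.48 to 13.61. Smooth muscle and renin cell markers had a mean of 10.23 to 10.88 against 11.02 to 11.86, with 1 of 5 genes called lower. Leukocyte markers had a mean of 8.11 to 8.43 against 8.51 to 9.20, with no gene called. None of the 20 tubule markers passed, and their summed linear values did not overlap between the groups, being higher with ATG. The part of these markers in the members' values was not tested. Adjusted for tubule marker level, Nid1 alone was called (−0.87, adjusted p = 0.0446), as were 0.341% of all genes. Hspg2 was then at −0.62 (adjusted p = 0.0573), Lamc3 at −0.67 (adjusted p = 0.0707) and Lamc1 at −0.35 (adjusted p = 0.203). When only these 6 mice entered the limma fit, no member was called, and 0% of all genes were. An unadjusted p under 0.05 was found for 7 members and 28.1% of all genes. Nid1 alone was called without nondiabetic vehicle mouse 1 or 3, and also without the 2 nondiabetic mice whose labels carry no number, and 2 members were called without nondiabetic ATG mouse 2. In these fits 0.901%, 0.426%, 0.0568% and 1.43% of all genes were called. Without nondiabetic ATG mouse 3, 9 members were called, and 25% of all genes.

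The most members were called between diabetic and nondiabetic mice that both received ATG. Of 10 members, 7 were higher and 1 lower in diabetic mice, against 25.9% and 20.8% of all genes, and 46.7% of all genes in either direction. The median log2 fold change was 0.66 for the members and 0.053 for all genes. This comparison shares its nondiabetic mice with the previous one and its diabetic mice with the ATG comparison in diabetic mice, so the calls are not independent of them. Nid1 was at 12.82, 12.70 and 12.74 in diabetic ATG mice, above every nondiabetic ATG mouse, and its log2 fold change was 1.27 ± 0.12 (adjusted p = 9.89e-05). Hspg2 was at 13.63, 13.57 and 13.64 and rose by 0.92 ± 0.098.

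The laminins Lamc1, Lamb2 and Lama5 had log2 fold changes of 0.80 ± 0.096, 0.66 ± 0.16 and 0.54 ± 0.096, all called. Agrn, the proteoglycan of this matrix that also binds dystroglycan, was at 0.65 ± 0.15. Col4a3 was called at 0.74 ± 0.25 (adjusted p = 0.0325), whereas Col4a4 at 0.29 ± 0.18 and Col4a5 at 0.47 ± 0.19 were not. Lamc3 fell by 0.30 (SE 0.11, adjusted p = 0.049). In 7 members every diabetic mouse was above every nondiabetic mouse, against 30.5% of all genes, and in Lamc3 every diabetic mouse was below, against 25.6%. Log2 fold changes were positive for 9 of 10 members and 56% of all genes. Of the tubule markers, 19 of 20 were lower in diabetic mice, while 11 of 12 endothelial, 7 of 8 mesangial and 6 of 12 podocyte markers were higher, as were 4 of 8 leukocyte, 3 of 5 smooth muscle and renin cell and 1 of 3 erythrocyte markers, and their part was not tested. Adjusted for tubule marker level, 1 member was called, Hspg2 at 1.02 (adjusted p = 0.0429), as were 0.844% of all genes, and Col4a3, Col4a4 and Col4a5 were negative. Nid1 was then at 1.21 (adjusted p = 0.0531) and Lamc1 at 0.65 (adjusted p = 0.105), while Lama5, Lamb2 and Agrn were at 0.22, 0.24 and 0.07 and Lamc3 at −0.19. Adjusted for podocyte marker level, 6 members were called, and 22.9% of all genes. Col4a3 was then at 0.11 (adjusted p = 0.498) and Lamc3 at −0.19 (adjusted p = 0.355), neither called, while Lamb2 and Agrn were called at 0.28 each. Lamc3 was called in 3 and Col4a3 in 8 of the 12 fits that each left out 1 mouse.

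**Figure D3:**
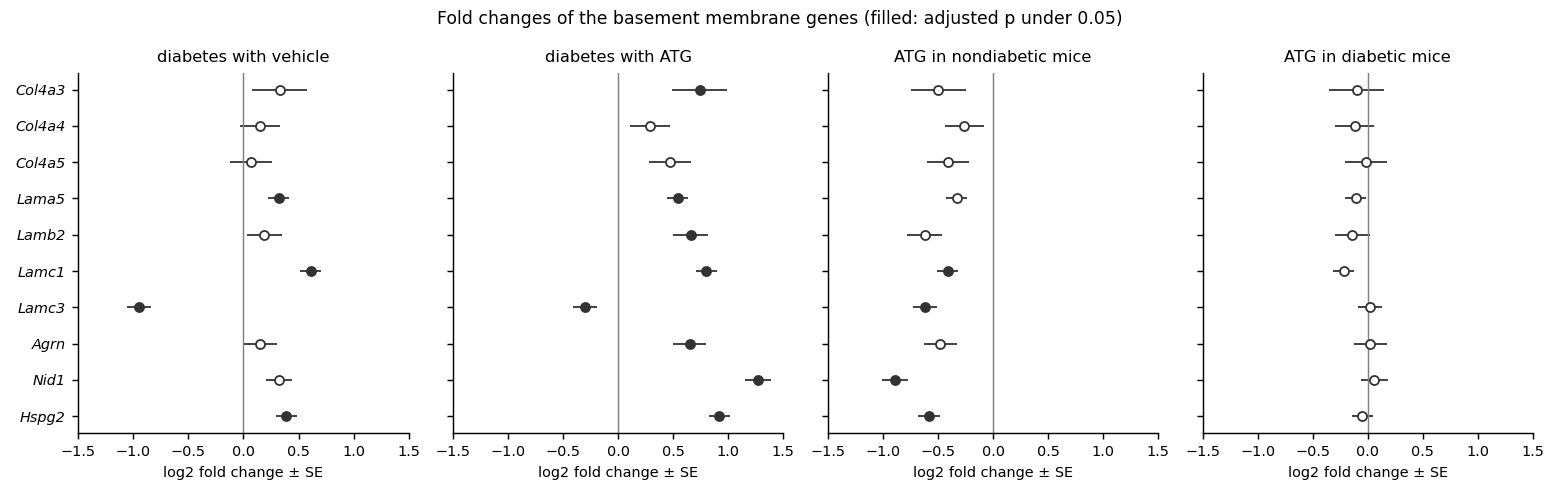
Log2 fold changes (horizontal axis) with standard errors of the 10 genes in 4 comparisons from 1 limma fit of 12 mice, filled where the adjusted p was under 0.05. Lamc3 is negative in both diabetes comparisons, and no point is filled for ATG in diabetic mice.

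The effect of ATG differed between diabetic and nondiabetic mice for 1 member, Nid1, against 0.546% of all genes. Its ATG effect was 0.06 in diabetic and −0.89 in nondiabetic mice, a difference of 0.95 ± 0.17 (limma interaction, adjusted p = 0.0455). Lamc3 and Hspg2 had differences of 0.65 ± 0.16 (adjusted p = 0.118) and 0.53 ± 0.14 (adjusted p = 0.133). All 10 differences were positive, against 52.5% of all genes, and 0.539% of all genes were called higher. The Nid1 call was lost when adjusted for tubule marker level (0.94, adjusted p = 0.0643) and was made in 3 of the 12 fits that each left out 1 mouse. Mesangial markers Itga8 and Pdgfrb also passed this test, at 1.34 and 1.03, and were chosen for mention after their values were seen.

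Within a mouse, differences between members do not depend on the library's scaling. Lamc1 exceeded Lamc3 by 3.57 to 3.86 log2 units in nondiabetic vehicle mice, by 3.60 to 4.10 in nondiabetic ATG mice, by 5.17 to 5.41 in diabetic vehicle mice and by 4.93 to 5.14 in diabetic ATG mice. The 6 diabetic mice thus lay apart from the 6 nondiabetic mice. The pair was chosen after its values were seen, since Lamc1 rose most with vehicle and Lamc3 was the member that fell, so the gap restates those calls within each mouse. The nondiabetic groups overlapped each other, and the diabetic groups did not.

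The mean of Col4a3, Col4a4 and Col4a5 minus the mean of Col4a1 and Col4a2, the collagen chains of most other basement membranes, was 0.03 to 0.58 in nondiabetic vehicle mice. It was 0.53 to 0.97 in nondiabetic ATG mice, −0.77 to 0.43 in diabetic vehicle mice and −0.21 to 0.15 in diabetic ATG mice. These ranges overlapped between the vehicle groups. Col4a3 exceeded Col4a4, its neighbour across the printed stretch, by 1.12 to 1.16 in nondiabetic vehicle mice and by 1.26 to 1.36 in diabetic vehicle mice. These ranges did not overlap, nor did those of Col4a3 minus Col4a5 or of Lama5 minus Lamb2, whereas those of Nid1 minus Col4a3 did. Between the ATG groups, Lama5 minus Lamb2 overlapped, at −0.11 to 0.46 in nondiabetic and −0.07 to 0.18 in diabetic mice. Col4a3 minus Col4a4, Col4a3 minus Col4a5 and Nid1 minus Col4a3 did not overlap between the ATG groups. Such separations were not counted over other gene pairs.

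**Figure D4:**
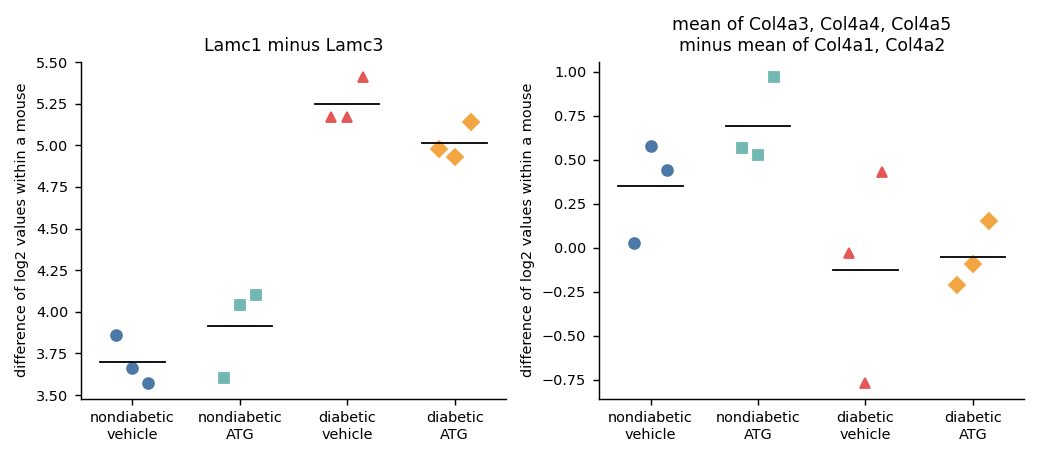
Differences of log2 values within a mouse, each point 1 mouse and each bar a group mean. On the left, Lamc1 minus Lamc3 is at most 4.10 in nondiabetic and at least 4.93 in diabetic mice. On the right, Col4a3, Col4a4 and Col4a5 against Col4a1 and Col4a2 range from −0.77 to 0.97.

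Over the 12 mice, which share groups and scaling, members other than Lamc3 correlated with each other at Pearson r 0.526 to 0.968. Lamc3 correlated with each of them at −0.502 to −0.182. Col4a3 and Col4a5 followed the podocyte marker mean at r 0.968 and 0.988, and Nid1 followed the endothelial and mesangial marker means at 0.973 and 0.927. Lama5 had the strongest relation to the tubule marker mean, at −0.949, while Lamc3 had 0.559. Among non-member genes with a mean log2 value of at least 7, the closest to each member were Otud7b for Col4a3 (0.988), Grhl1 for Col4a4 (0.968), Sh3bgrl2 for Col4a5 (0.992), Slc12a5 for Lama5 (0.992) and Dync1li2 for Lamb2 (0.987). For the others they were Traf7 for Lamc1 (0.992), Iffo2 for Agrn (0.994), Tln1 for Nid1 (0.989) and Col4a1 for Hspg2 (0.990). Genes close to Lamc3 included Esm1, Nme3, Cdh6 and Lztr1, with r from 0.889 to 0.897. These are descriptions over 12 mice with no test.

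**Figure D5:**
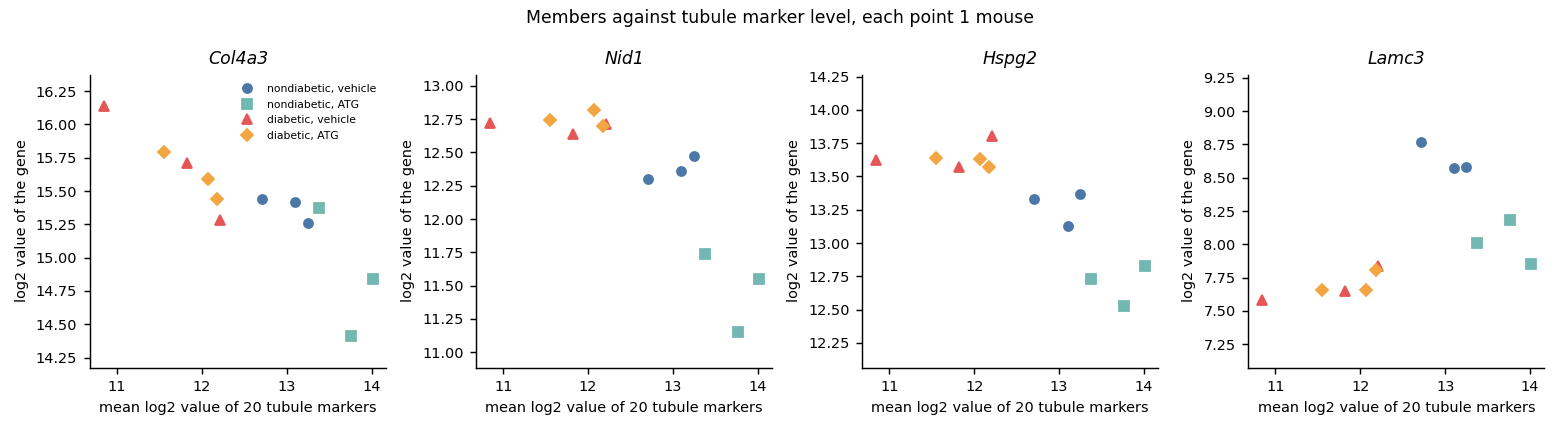
Log2 values of 4 members (vertical axis) against the mean log2 value of 20 tubule markers (horizontal axis), each point 1 mouse, symbols by group. The diabetic mice lie at or below 12.21 on the horizontal axis and the nondiabetic mice at or above 12.71.

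Of 74 related basement membrane and adhesion genes, 69 were listed. In diabetic against nondiabetic vehicle mice 12 rose and 4 fell, so 16 of 69 were called, against 18.9% of all genes (10.2% higher and 8.63% lower). Their median log2 fold change was 0.07. Among the other collagens, Col4a1 and Col4a2 rose by 0.56 and 0.76. Among the other laminins, Lama4 rose by 0.65 and Lama3 fell by 0.61. Nid2, the second nidogen, rose by 0.57, Col18a1, a collagen whose fragment is endostatin, rose by 0.37, and the netrin Ntn4 fell by 0.45. Fras1, an epithelial basement membrane protein, fell by 0.79.

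Collagen-processing genes Colgalt1, Crtap and Pxdn rose by 0.39, 0.29 and 0.61, and Pxdn crosslinks type IV collagen. The heparan sulfate-cleaving enzyme Hpse rose by 0.63. The matrix proteases Mmp14 and Mmp2 rose by 0.49 and 0.51. Of the integrins, Itga6, a laminin receptor, rose by 0.39 and Itga1, a collagen receptor, fell by 0.38. None of the 6 podocyte regulators listed passed. Adjusted for tubule marker level, 3 of these 69 genes were called, against 3.9% of all genes, and without nondiabetic vehicle mouse 2 there were 4, against 5.68%.

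In the other comparisons, none of the 69 passed for ATG in diabetic mice or for the interaction. With ATG in nondiabetic mice 9 of 69 fell, against 4.51% of all genes, and none rose. Mmp2 fell by 1.27, Col4a2 by 0.75, Col15a1 by 0.75 and Col4a1 by 0.71. Between diabetic and nondiabetic ATG mice 34 of 69 were higher and 6 lower, against 25.9% and 20.8% of all genes. In each list, the gene with the lowest p was higher in diabetic mice. These genes were Col4a2 at 1.34, Lama4 at 1.07, Nid2 at 1.07, Colgalt1 at 0.68, Hpse at 1.14, Mmp2 at 1.63, the integrin Itga6 at 0.47 and the transcription factor gene Foxc1 at 0.68. The 6 that were lower were Lama1, Lama3, Fras1, Tinag, Hs6st1 and Itga1.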

How the data were processed

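Glomerular poly-A mRNA-seq of 12 mice (3 per group) was used. Values are the log2 values the authors deposited for each mouse, 14096 genes apiece. They were taken as reads times a factor per library, since 83.4% to 84.1% of linear values under 2000 were whole multiples of a step within 0.02. The remaining values were not explained, and read numbers are values divided by that step. The labels name build mm10 and limma, and the aligner and counter are not given in the sources used here. Labels also describe cell sorting, whereas the methods describe whole glomeruli. Library totals were 23638059 to 29768868 reads.

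One fit of 4 group means over all 12 mice and 14096 genes was made with limma 3.58.1 (R 4.3.3, variance trend, Benjamini-Hochberg, threshold 0.05). In simulated data for diabetes with vehicle, with 200 changed genes of 14096, 69.5% were recovered at a log2 change of 0.5 and 100% at 1. Every simulated gene had the same spread beyond counting error in all groups. These shares therefore do not carry over to members that spread more widely, such as Col4a3 (SE 0.25). Members, marker lists and related lists were chosen with earlier results of these data known. Named genes are the 10 members, related genes called in the diabetes comparisons (at most 4 per list by lowest p), those falling furthest with ATG, chosen after their values were seen, and the non-members most correlated with each member (5 for Lamc3, of which 1 is not reported here). Alternatives were median-ratio scaling, a 10-read minimum, no variance trend, only the groups compared, a replicate block, marker covariates, limma-voom on recovered reads and leaving out mice. Positions count from 1 on mm10. Antisense genes share exon bases with Col4a3 (C430014B12Rik), Lamc3 (Gm13441) and Nid1 (Gm48682). Intervals cover 95%.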

Additional observations from a re-analysis of the deposited data

Results flagged for a closer look

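The ATG effect on Nid1 differed between diabetic and nondiabetic mice by 0.95 on the log2 scale (limma interaction, adjusted p = 0.0455). The call was kept in 4 of 8 alternatives, with an adjusted p of up to 0.0966, and in 3 of the 12 fits that each left out 1 mouse. Nid1 was lower with ATG in nondiabetic mice, where all 3 ATG mice were below all 3 vehicle mice, and overlapped between the diabetic groups. Groups of 3 mice are too small for a search for single mice that stand apart.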

How the results depend on the processing

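Of 1040 log2 fold changes recomputed for the members, 899 kept their direction and side of the threshold, 86 lost the call, 17 gained it and 38 changed sign. The 899 include values with no call to lose, such as 196 of 210 for ATG in diabetic mice. Leaving out a mouse of another group also left a fold change as it was. For the interaction, where only Nid1 was called, 13 values lost the call. Median-ratio scaling, a 10-read minimum and limma-voom on recovered reads left every count of called members within 1.5 times. Without a variance trend the interaction count was 0, with 0.135% of all genes called. With only the groups compared, ATG in nondiabetic mice gave 0 called members and 0% of all genes. Without the 2 nondiabetic mice with no number that comparison gave 1 (0.0568% of all genes), and the interaction gave 0 (0.0426%). No count was made for the interaction with only the groups compared, since it needs all 4.

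Adjusted for tubule marker level, the called members were 1 for diabetes with vehicle, 1 for ATG in nondiabetic mice, 1 for diabetes with ATG and 0 for the interaction, while 3.9%, 0.341%, 0.844% and 0.27% of all genes were called, and the called related genes for diabetes with vehicle were 3. Some folds whose call was lost stayed about as large, such as Lamc1 (0.49) and Hspg2 (0.47) for diabetes with vehicle, Hspg2 (−0.62) and Lamc3 (−0.67) for ATG in nondiabetic mice and Nid1 (1.21) for diabetes with ATG. Others shrank, such as Lama5 (0.07) for diabetes with vehicle and Lama5 (0.22), Lamb2 (0.24) and Agrn (0.07) for diabetes with ATG. Signs then changed for diabetes with vehicle in Col4a3 (−0.50), Col4a4 (−0.57), Col4a5 (−0.55), Lamb2 (−0.14) and Agrn (−0.30), and for ATG in diabetic mice in Col4a3 (0.09), Col4a4 (0.04) and Col4a5 (0.12). They also changed for ATG in nondiabetic mice in Col4a4 (0.10), for diabetes with ATG in Col4a3 (−0.33), Col4a4 (−0.62) and Col4a5 (−0.33), and for the interaction in Col4a4 (−0.06). Adjusted for podocyte marker level, 2 members were called for ATG in nondiabetic mice. Signs changed in Col4a5 for diabetes with vehicle (−0.05) and for ATG in diabetic mice (0.03), and in Col4a3 (0.04), Col4a4 (0.08) and Col4a5 (0.02) for ATG in nondiabetic mice. They changed in Col4a4 (−0.11) and Col4a5 (−0.03) for diabetes with ATG, and in Col4a3 (−0.07) and Col4a4 (−0.16) for the interaction. The cause of these changes was not tested.

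Whether the numbers in the labels pair the mice could not be decided. Same-numbered diabetic mice deviated together at r 0.315, 0.054 and 0.339, and same-numbered mice of other pairs of groups at −0.59 to 0.254. Mice with different numbers were not compared, so these values have no reference. With these numbers as a replicate block, 2 members were called for diabetes with vehicle (9.75% of all genes), and 6 of the related genes were. The interaction gave 0 (0.0568% of all genes). Col4a4 (−0.08), Col4a5 (−0.14) and Agrn (−0.03) changed sign for diabetes with vehicle.

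With each mouse left out in turn, called members numbered 2 to 5 for diabetes with vehicle, 1 to 9 for ATG in nondiabetic mice and 0 to 2 for the interaction, and called related genes 4 to 20. Over all genes the called share ran from 5.68% to 23.8%, 0.426% to 25% and 0.0426% to 5.46% in these 3 comparisons. Values that changed sign ranged, for diabetes with vehicle, from −0.05 to 0.33 (Col4a4) and −0.09 to 0.24 (Col4a5). For ATG in diabetic mice they ranged from −0.31 to 0.12 (Col4a3), −0.30 to 0.08 (Col4a4), −0.19 to 0.15 (Col4a5), −0.03 to 0.10 (Lamc3), −0.08 to 0.13 (Agrn) and −0.09 to 0.02 (Hspg2), and the Col4a4 interaction from −0.04 to 0.34. Lamc3, with 174 to 404 reads a mouse, is the member most limited by depth.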
